A study of Homo sapiens with 2 samples.

Results

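The miR-130, miR-301 and miR-454 family was followed in FaDu cells, a squamous carcinoma line of the hypopharynx that the labels write FadU, cultured either in the parental form or as spheres. Its members were taken by name from the deposited tables of mature miRNAs. They are the guide arms miR-130a-3p, miR-130b-3p, miR-301a-3p, miR-301b and miR-454-3p and the passenger arms miR-130b-5p and miR-454-5p, 7 of 2038 names in all. The parental group was grown in RPMI-1640 with 10% FBS. The sphere group, which the labels call sphere-derived cancer stem cells, was grown in DMEM-F12 that held EGF and bFGF at 10 ng/ml each beside N2 Plus Supplement. Both were kept with penicillin-streptomycine, neither label names a genetic change, and each library used the TruSeq small RNA kit on 1 µg of total RNA. Medium, serum and growth form changed together, so their parts cannot be told apart, and no label says how many cultures or passages lie behind a library. With 1 library for each group, the values have no replicate check and no test between the groups was possible.

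A miRNA hairpin yields a strand from each arm. The guide strand is loaded into an Argonaute protein and pairs with target mRNAs mainly through its seed, bases 2 to 8 from the 5′ end, while the passenger strand is mostly discarded. Guide arms with a common seed share many predicted targets, so their summed level describes the supply of that seed. In this family, miR-130a is known for repressing HOXA5 in endothelial cells, miR-130b for repressing TP53INP1 in tumour-initiating cells of the liver, and miR-301a for repressing the NF-kB inhibitor NKRF in pancreatic cancer.

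Mature sequences of 6 of the 7 members were matched in RefSeq (GRCh38.p14), the other member being miR-130a-3p, which is in the family by name. The guide arms are shown first because the seed, in capitals, is what defines the family.
miR-130b-3p: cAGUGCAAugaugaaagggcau
miR-301a-3p: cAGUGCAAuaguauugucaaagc
miR-301b: cAGUGCAAugauauugucaaagc
miR-454-3p: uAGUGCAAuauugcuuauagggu

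All 4 printed guide arms had the seed AGUGCAA. It was held by 6 of the 2370 mature sequences in the RefSeq table (0.253%), these 4 and miR-3666 and miR-4295. Outside the seed the paralogs diverge. miR-301a-3p and miR-301b were alike at 21 of 23 positions, with the changes A10G and G11A from miR-301a-3p to miR-301b, counted from the 5′ end. miR-130b-3p and miR-301b share their first 12 bases, and miR-454-3p differs from the other 3 already at its first base. How the authors divided reads among such similar sequences is not given in the sources used here, so the split between miR-301a-3p and miR-301b is uncertain.

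The passenger arms have seeds of their own, in capitals here, and so belong to the family by hairpin and not by seed.
miR-130b-5p: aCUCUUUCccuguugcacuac
miR-454-5p: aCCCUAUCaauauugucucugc

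miR-130b-5p holds UUGCACU, the reverse complement of the family seed, from base 13 on, and miR-454-5p does not. Searched as written, on the RNA strand alone, these letters occur in 8 of the 2370 mature sequences, or 0.338%.

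Both hairpins with 2 member arms are printed with the mature arms in capitals, the passenger arm first, because the balance of these arms is compared between the libraries below.
MIR130B: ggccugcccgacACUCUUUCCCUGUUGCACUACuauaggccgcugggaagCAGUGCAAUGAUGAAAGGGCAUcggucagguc
MIR454: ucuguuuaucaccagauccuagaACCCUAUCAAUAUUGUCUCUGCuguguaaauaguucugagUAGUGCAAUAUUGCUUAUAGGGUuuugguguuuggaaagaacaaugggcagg

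The family comes from 3 places in the genome. These positions are on GRCh38, while the submitters' processing notes name hg19 and the files hold no coordinates. MIR301B (chr22:21652981-21653058) and MIR130B (chr22:21653304-21653385) lie 245 bases apart on the plus strand within the non-coding gene AP000553.1. MIR301B is in an intron of it, and 44 bases of MIR130B overlap an exon (GENCODE 29). MIR301A (chr17:59151136-59151221) and MIR454 (chr17:59137758-59137872) lie 13263 bases apart on the minus strand, both in introns of SKA2, a spindle and kinetochore gene. MIR130A (chr11:57641198-57641286) is on the plus strand in an intron of the non-coding gene AP000662.1.

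The deposited unit is RPKM, reads per kilobase of miRNA and per 1000000 reads, so a level also depends on the length taken for the miRNA. Whether different miRNAs were captured equally was not tested, which limits comparisons of level between them. The sphere library stood apart in its miRNA content. At 22 nt per miRNA, miRNAs made up 58.4% of the reads behind the parental RPKM and 12.1% of those behind the sphere RPKM, and the part of this difference in the values below was not tested. RPKM summed to 4.82 times more in the parental library, so the 2 columns were also rescaled to a sum of 1000000 each ("rescaled RPKM", the part of the miRNA signal per 1000000). An estimated 4542489 parental and 682359 sphere reads lay on miRNAs, with 1 parental read worth 5.84 RPKM and 1 sphere read 8.07 RPKM. Intervals are 95% exact (Clopper-Pearson) intervals from estimated reads. They cover counting error only and compare these libraries, not the conditions. The epithelial markers miR-203a, miR-205-5p, miR-200c-3p and miR-141-3p were all present, with sums of 27932 (parental) and 67703 (spheres) rescaled RPKM. miR-203a carried most of that difference, at 2698 and 35056, while miR-205-5p had 21938 and 19458. Of 10 markers of blood, muscle, liver, neurons and endothelium, 6 were at 0 in the parental library against 4 in the other, and they summed to 40.8 and 107.7 rescaled RPKM. miR-126-3p of endothelium held most of both sums, at 38.3 and 68.9, and was the only 1 of the 10 to average 10 rescaled RPKM or more. miR-122-5p of liver and miR-124-3p of neurons were at 0 in both. The part of these markers in the values below was not tested.

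As a share of the miRNA signal, the guide arms of the family had a similar summed level in both libraries, while the passenger arm miR-454-5p was 3.59-fold lower in spheres (1.89 to 7.75). The passenger arm miR-130b-5p was lower too, but on 3.88 sphere reads. None of the 5 guide arms reached a 2-fold difference, and their order by level was the same in both libraries. Within that sum, miR-130a-3p and miR-454-3p were somewhat higher and miR-130b-3p somewhat lower. Per read behind the deposited RPKM, all 5 guide arms and miR-454-5p were at least 2-fold lower in spheres. On that scale a drop of 2-fold or more was common, seen for 79.6% of the 269 miRNAs that passed the filter given below. As a share of the miRNA signal, 23.0% of these 269 rose and 19.0% fell by 2-fold or more. Staying within 2-fold was therefore common too. In such bulk RNA, fewer cells that make a miRNA and less of it per cell cannot be told apart.

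The 5 guide arms together held 0.116% of the parental miRNA signal (0.113% to 0.119%) and 0.127% of that of the spheres (0.119% to 0.136%). In rescaled RPKM this is 1159 against 1270, a ratio of 1.10 (1.02 to 1.18). The log2 fold of the sum was 0.13 and lay between -0.088 and 0.20 under 5 other scalings within the miRNA signal, 3 of them below 0. Leaving out miR-130a-3p brought it to 0.0025. As deposited, the sum was 30745 RPKM in parental cells against 6995 RPKM in spheres, which is 4.40-fold lower in spheres and close to the 4.82-fold difference of the whole columns.

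**Figure D1:**
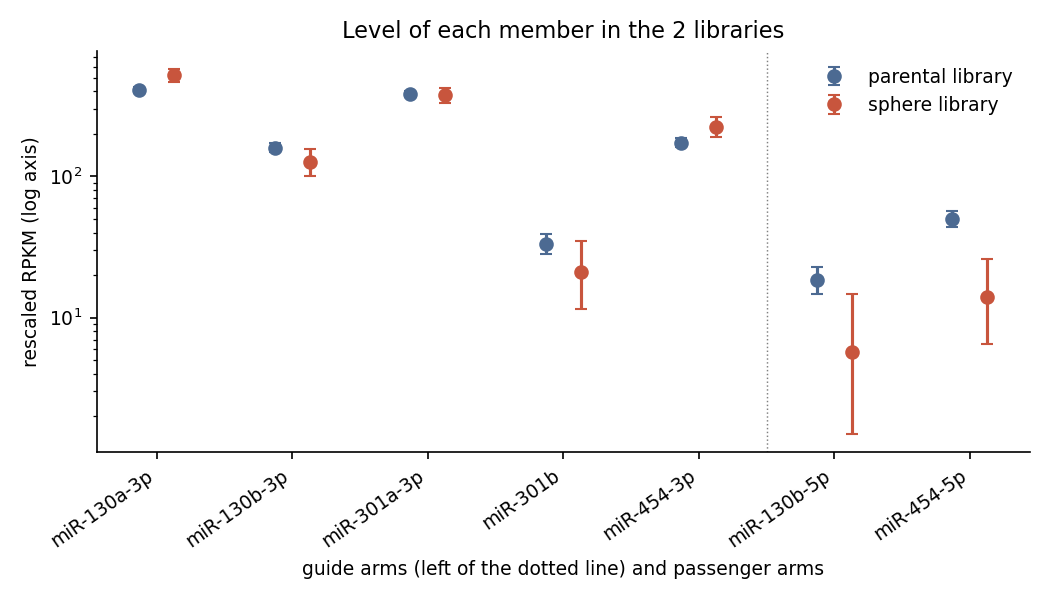
Rescaled RPKM (log axis) of each member in the parental (blue) and sphere (red) library, with 1 library per group. Bars are 95% counting intervals. Each guide arm differs by less than 2-fold between the libraries, from miR-130a-3p at 410.4 and 519.8 down to miR-301b at 33.4 and 21.0. The passenger arm miR-454-5p lies at 49.9 and 13.9.

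miR-130a-3p was the most abundant member, at 10887 RPKM in parental cells and 2864 RPKM in spheres. In rescaled RPKM it had 410.4 and 519.8, on 1864 and 355 estimated reads. It was thus 1.27-fold higher as a share of miRNA (1.13 to 1.42), with a log2 fold of 0.34, and by level it ranked 80 in the parental library and 77 in spheres. By level in both libraries, the measured miRNAs nearest to it were miR-155-5p (422.0 and 543.9 rescaled RPKM), miR-29b-3p (422.0 and 554.2) and miR-27a-5p (504.8 and 554.0). Their distances on the log2 scale over the 2 libraries were 0.077, 0.10 and 0.31. With only 2 libraries such likeness describes level and ratio and nothing more.

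miR-301a-3p came next, at 10128 RPKM in parental cells and 2077 RPKM in spheres. Its rescaled values, 381.8 and 377.1, were nearly equal, with a log2 fold of -0.018 and an interval of the ratio from 0.863 to 1.13. Its SKA2 neighbour miR-454-3p had 4609 and 1243 RPKM, or 174 and 226 rescaled, on 789 and 154 reads. miR-454-3p was 1.30-fold higher as a share of miRNA (1.09 to 1.55), with a log2 fold of 0.38. The ratio of miR-301a-3p to miR-454-3p was therefore 2.20 in parental cells and 1.67 in spheres, a ratio of ratios of 0.760 (0.608 to 0.950).

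miR-130b-3p had 4235 RPKM in parental cells and 694 RPKM in spheres. Its rescaled values were 160 and 126, on 725 and 86 reads, a 1.27-fold lower share of miRNA in spheres (1.01 to 1.60) with a log2 fold of -0.34. miR-301b, whose hairpin neighbours it, was the least abundant guide arm. It had 885 and 116 RPKM, or 33.4 and 21.0 rescaled, on 152 and 14.3 reads. Its log2 fold was -0.65, and the interval of the ratio, 0.339 to 1.08, included 1. The ratio of miR-130b-3p to miR-301b was 4.78 in parental cells against 5.99 in spheres, and the interval of its change, 0.704 to 2.52, included 1 as well.

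The order miR-130a-3p, miR-301a-3p, miR-454-3p, miR-130b-3p, miR-301b held in both libraries. In parental cells miR-454-3p and miR-130b-3p were not separated beyond counting error, with a ratio of 1.09 (0.983 to 1.21). In spheres they were, at 1.79 (1.37 to 2.36). miR-130a-3p and miR-301a-3p were close in parental cells, at 1.07 (1.01 to 1.15), and further apart in spheres, at 1.38 (1.17 to 1.62). Counted by estimated reads in place of RPKM, they held 34.6% and 33.7% of the guide arms in parental cells. In spheres these shares were 40.0% and 30.4%. The length of miR-130a-3p was assumed, since its sequence was not matched. Whether this pair is separated in parental cells thus depends on the unit and is not firm.

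**Figure D2:**
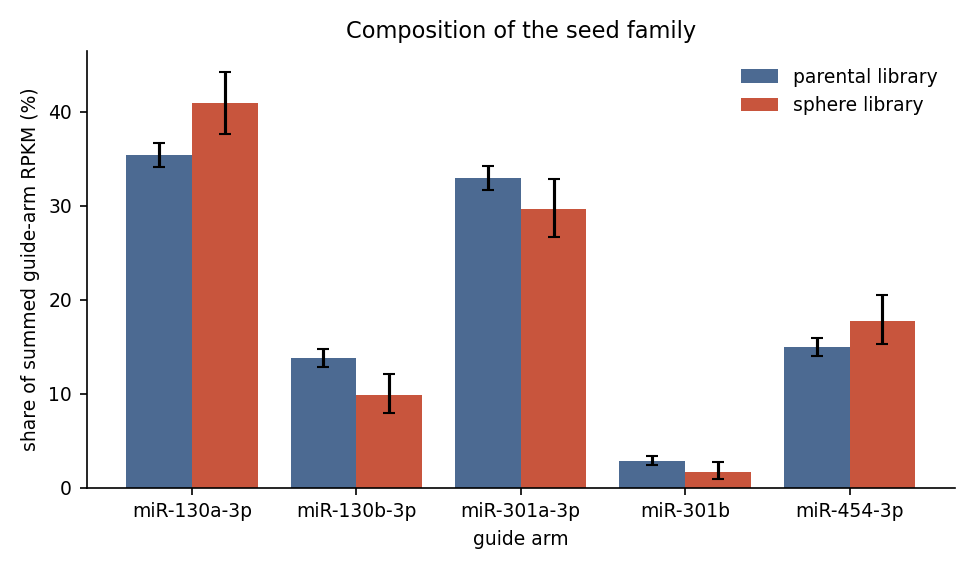
Share (%) of the summed guide-arm RPKM held by each guide arm in the parental (blue) and sphere (red) library. Bars start at 0 and whiskers are 95% counting intervals. The share of miR-130a-3p is 35.4% against 40.9% and that of miR-130b-3p 13.8% against 9.93%.

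The makeup of the seed pool shifted modestly. miR-130a-3p supplied 35.4% of the guide-arm signal in parental cells (34.1% to 36.7%) and 40.9% in spheres (37.6% to 44.3%). miR-301a-3p supplied 32.9% and 29.7%, and miR-454-3p 15.0% and 17.8%. The chromosome 22 pair gave the rest, with miR-130b-3p at 13.8% (12.9% to 14.7%) and 9.93% (8.02% to 12.1%) and miR-301b at 2.88% and 1.66%. Summed by locus, the 2 SKA2 guide arms stood at 2.88 times the chromosome 22 pair in parental cells and at 4.10 times in spheres, a ratio of ratios of 1.42 (1.13 to 1.82). miR-454-3p over miR-130b-3p had a ratio of ratios of 1.65 (1.23 to 2.21), whereas for miR-301a-3p the interval included 1 both over miR-130b-3p (0.959 to 1.64) and over miR-301b (0.912 to 3.06). Of the 10 possible pairs of guide arms, 6 had an interval of the ratio of ratios that excluded 1. The pairs share arms, and their intervals were not adjusted for the number of pairs.

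**Figure D3:**
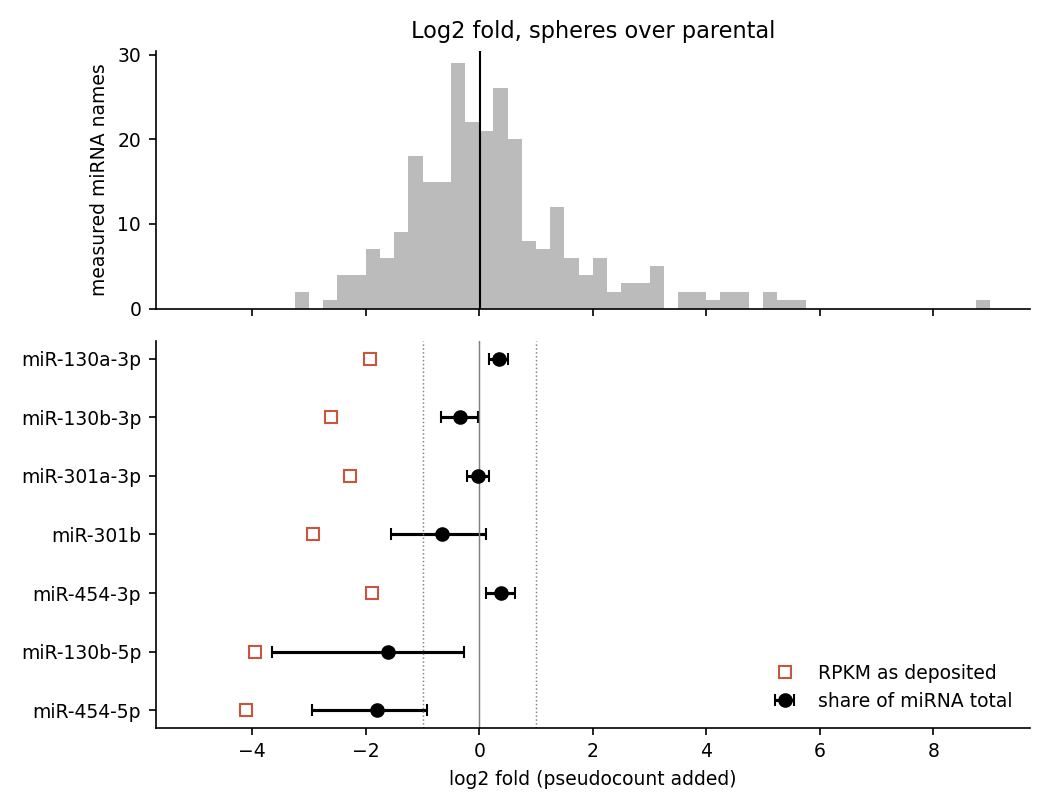
Top, log2 folds (spheres over parental, as share of the miRNA total) of the 269 measured miRNAs, with their median as a line. Bottom, log2 fold of each member on that scale (black, with 95% counting intervals) and from RPKM as deposited (open squares); dotted lines mark 2-fold. The guide arms lie between -0.65 and 0.38 and the passenger arms at -1.61 and -1.81.

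Log2 folds compare rescaled RPKM plus 0.5, spheres over parental, and miRNAs whose 2 libraries averaged 10 rescaled RPKM or more are called measured. All 7 members passed, miR-130b-5p only through its parental value. Among the 269 measured miRNAs, 23.0% lay 2-fold or more higher in spheres and 19.0% lay 2-fold or more lower. Of the guide arms 0 of 5 were higher and 0 of 5 lower, and their median of -0.018 lay beside a median of 0.020 over all measured miRNAs. miR-454-5p was past 2-fold lower, at -1.81. miR-130b-5p had -1.61, and since only its parental value carried it past the filter, it is given as a value and not counted against this background. As deposited, all 5 guide arms and miR-454-5p were at least 2-fold lower, as were 79.6% of the measured miRNAs. At least 2-fold higher were 0 of the 5 guide arms, against 6.32% of the measured miRNAs. The guide arms were then 3.71-fold (miR-454-3p) to 7.64-fold (miR-301b) lower and the passenger arms 15.6-fold (miR-130b-5p) and 17.3-fold (miR-454-5p) lower.

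miR-454-5p, the passenger arm of the MIR454 hairpin printed above, had 1325 RPKM in parental cells and 76.7 RPKM in spheres. Rescaled, it had 49.9 and 13.9, on 227 and 9.50 reads, and so was 3.59-fold lower in spheres (1.89 to 7.75). Its guide arm was 1.30-fold higher over the same libraries. The passenger arm made up 22.3% of the signal of both arms in parental cells (19.8% to 25.0%) and 5.81% in spheres (2.76% to 10.6%). The guide stood at 3.48 times the passenger in parental cells and at 16.2 times in spheres, a 4.66-fold difference with an exact conditional interval of 2.29 to 9.58.

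miR-130b-5p had 489 RPKM in parental cells and 31.3 RPKM in spheres. Rescaled, it had 18.4 and 5.68, 3.24-fold lower in spheres (1.20 to 12.5), on 83.7 and only 3.88 reads. It made up 10.3% of the signal of its hairpin in parental cells (8.33% to 12.7%) and 4.31% in spheres (1.16% to 10.8%). The guide stood at 8.67 times the passenger in parental cells and at 22.2 times in spheres. This 2.56-fold difference had an interval of 0.902 to 9.58, so that at this depth it was not separated from no difference.

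The opposite arms miR-301a-5p and miR-130a-5p, which are no members, were too low to be measured. miR-301a-5p had 98.8 RPKM in parental cells and 8.07 RPKM in spheres, on 16.9 and 1 reads, and a ratio of the rescaled values of 0.394 (0.0094 to 2.51). miR-130a-5p had 49.6 and 32.3 RPKM, on 8.50 and 4 reads, and a ratio of 3.13 (0.698 to 11.4). Both intervals included 1.

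**Figure D4:**
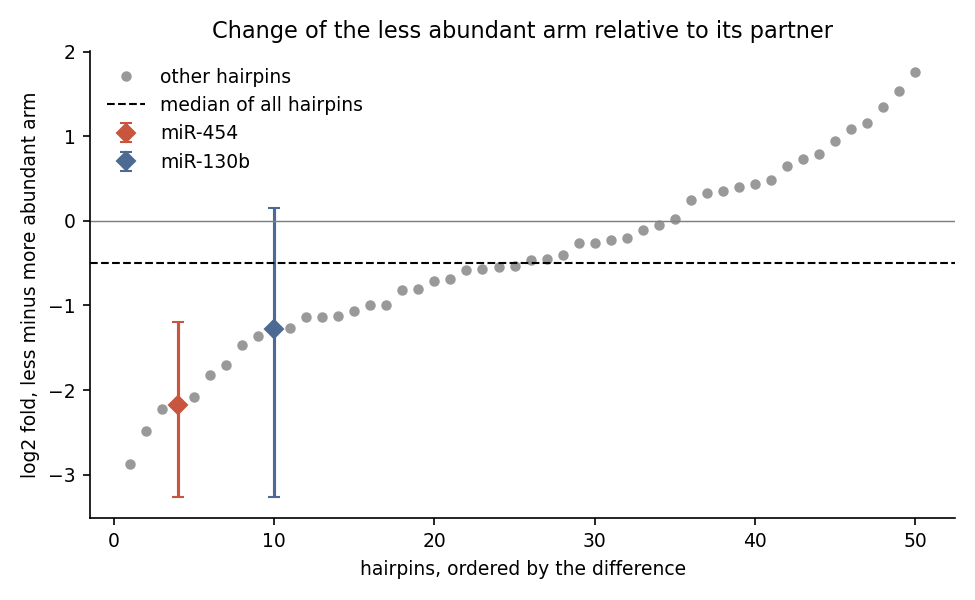
Log2 fold of the less abundant arm minus that of the more abundant arm for each of 50 hairpins, ordered by this difference; miR-454 and miR-130b are marked, with 95% counting intervals, and the dashed line is the median of all hairpins. miR-454 is the 4th lowest at -2.18 and miR-130b lies at -1.27, beside a median of -0.50. The less abundant arm of miR-130b passed the filter only through its parental value, so its place in the order is not interpreted.

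The balance of arms was also compared over other hairpins. This comparison was added after the values of the members were seen. The less abundant arm of a hairpin is not always its passenger arm, and it can be lower relative to its partner without being lower itself. Of 50 hairpins with both arms listed and the less abundant arm measured, the less abundant arm was lower relative to its partner in 68.0% and at least 2-fold lower in 30.0%, against 10.0% in which it was at least 2-fold higher, with a median log2 difference of -0.50. miR-454, at -2.18, was the 4th lowest of them. miR-130b had -1.27, but its less abundant arm passed the filter only through its parental value. Its difference is therefore given as a value, and its place in the order is not interpreted. It is among the 50 hairpins counted, and other hairpins can enter in the same way. Without miR-130b and miR-454, the less abundant arm was at least 2-fold lower relative to its partner in 13 of the other 48. The median of these 48 was -0.45. The difference is a ratio within each library and does not change with the scaling, apart from the pseudocount.

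Of the other miRNAs with the family seed, miR-3666 and miR-4295 were listed at 0 in both libraries. The one-sided limit that a count of 0 allows, 3 reads, was 17.5 RPKM for parental cells and 24.2 RPKM for spheres. With miR-130a-3p counted by its name, the signal above 0 for this seed came from the 5 member guide arms.

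Seeds that overlap AGUGCAA by 6 bases belong to the miR-19 pair, which is part of the miR-17-92 oncogenic cluster, and to the miR-148 and miR-152 group, known for targeting DNMT1. One of each is shown with its seed in capitals.
miR-19b-3p: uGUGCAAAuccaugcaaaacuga
miR-148a-3p: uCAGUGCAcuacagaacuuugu

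miR-19a-3p and miR-19b-3p had log2 folds of 0.32 and 0.32, miR-148a-3p 0.084 and miR-148b-3p -0.051. miR-152 was the single one of these 5 past 2-fold, at 2.63-fold higher (1.76 to 3.85), on 97.6 and 38.5 reads, and at -0.87 in log2 as deposited. The median of the 5 was 0.32, beside 0.020 over all measured miRNAs. Of all measured miRNAs 23.0% were at least 2-fold higher, so 1 of 5 lies near that share. The summed family guide arms stood at 3.21 times the miR-19 pair in parental cells and at 2.81 times in spheres, a ratio of ratios of 0.876 (0.760 to 1.01). Against the summed miR-148 and miR-152 guide arms the ratio of ratios was 1.04 (0.960 to 1.12). Both intervals included 1, so the family was not separated from either set by counting error.

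**Figure D5:**
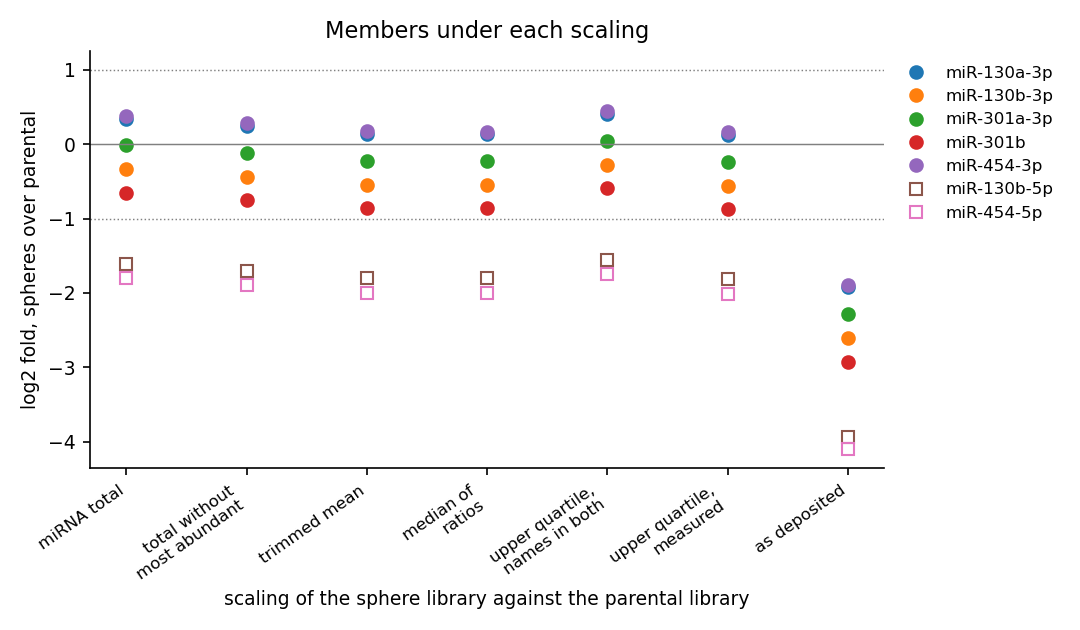
Log2 fold (spheres over parental) of each member under 7 scalings of the sphere library; filled circles are guide arms, open squares passenger arms, and dotted lines mark 2-fold. A scaling shifts all members together by its construction. The passenger arms lie below -1 under each, and the guide arms lie within 2-fold under each except RPKM as deposited.

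Among the guide arms, only miR-301a-3p changed sign between scalings within the miRNA signal, while as deposited all 5 lay below 0. miR-130a-3p and miR-454-3p stayed above 0 under each of 5 alternative scalings to part of the miRNA signal, at 0.12 to 0.40 and 0.16 to 0.44, and miR-130b-3p and miR-301b stayed below 0. miR-301a-3p ranged from -0.24 to 0.046. These 5 scalings moved all log2 folds by -0.22 to 0.063. The log2 intervals of miR-130a-3p and miR-454-3p began at 0.17 and 0.12, and that of miR-130b-3p ended at -0.017. Whether these intervals exclude 0 thus depends on the scaling. As deposited, these 5 guide arms had log2 folds between -2.93 and -1.89.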

How the data were processed

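Small RNA was profiled in 2 libraries, parental and sphere, with 1 library per group. Per the file headers, the deposited values are the authors' RPKM. The submitters' processing notes name hg19. Aligner, counter, miRNA release and handling of multiply matching reads: not given in the sources used here. No counts are in the files, so no count model was used. The members and lists were chosen with earlier results of these data known.

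With Python 3.11.15, pandas 2.3.3, numpy 2.4.6 and scipy 1.17.1, columns were rescaled to 1000000 and log2 folds computed with a pseudocount of 0.5 at a minimum mean of 10. The commonest value above 0 was taken as 1 read on 22 nt. With the RefSeq length of each name, 393 of 811 values between 0.5 and 60 reads were whole within 0.01 reads, as were 5 of 12 values of the members, and 2 more of those were 0.5 reads from whole. The other values hold other fractions of reads. Intervals were exact (Clopper-Pearson), or exact conditional for ratios of ratios of rounded reads, at 95%. The precision of low members is set by the 682359 estimated sphere reads. The steps were tested on simulated data. Alternatives were 6 scalings, pseudocounts of 5 and 0.1, other filters, read-based shares and sums without each guide arm. The names described were the members, the lists of same and overlapping seeds, opposite arms, markers and the 3 measured miRNAs nearest to the most abundant guide arm. miR-301b-5p was not analysed here.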

Additional observations from a re-analysis of the deposited data

How the results depend on the processing

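With RPKM as deposited, the log2 fold of the summed guide arms was -2.14 in place of 0.13 and their median -2.29 in place of -0.018, while the share of measured miRNAs 2-fold or more higher was 6.32% and lower 79.6%, in place of 23.0% and 19.0%. By construction this scale keeps the different miRNA share of the 2 columns. The sum and the median were -0.074 and -0.22 with the trimmed mean, -0.076 and -0.23 with the median of ratios, and -0.088 and -0.24 with the upper quartile of the measured miRNAs, which was chosen after seeing the data. The sum without miR-130a-3p was 0.0025. So the sign of the summed level is not firm, and under each of these scalings but the deposited one it lay within 2-fold. Both passenger arms stayed at least 2-fold lower under every scaling and pseudocount run. A scaling shifts all members together by construction, and miR-130b-5p passed the filter only through its parental value, so this adds no support. With a pseudocount of 5, chosen for this result after seeing the data, the log2 difference of the miR-130b arms was -0.80 and no longer past 2-fold, and that of miR-454 was -1.91. At other filters on the less abundant arm, 32.5% (none) and 32.4% (a mean of at least 20) of hairpins had it at least 2-fold lower relative to its partner, in place of 30.0%. No paired analysis was possible because each group has 1 library, and for the same reason no replicate could be left out. Depth limits miR-130b-5p (3.88 sphere reads), miR-454-5p (9.50) and miR-301b (14.3) most.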
